A study of Mus musculus with 12 samples.

Results

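The 7 subunits of respiratory complex I that are encoded in mitochondrial DNA, ND1 to ND6 with ND4L, were described in isolated cortical neurons of mice. They were taken by name from the deposited table of fragment counts, so the members were 7 of 35129 entries and 7 of the 13 mitochondrially encoded protein genes. All 7 were present in the table and passed the filter on low counts in every comparison.

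The study asked how nicotine given for 14 days affected gene expression in somatostatin (Sst) interneurons and in pyramidal (Thy1) neurons of the neocortex. Sst-neurons came from GIN mice on the FVB background, whose enhanced green fluorescent protein marks only a group of the somatostatin interneurons. Thy1-neurons came from YFPH mice on the B6 background, whose yellow fluorescent protein marks layer V pyramidal neurons. The mice were male, weighed 20 g and were 5 to 7 weeks old, and a subcutaneous mini pump delivered nicotine hydrogen tartrate at 48 mg/kg/d or saline vehicle. The groups are called Sst and Thy1 after saline, and Sst+Nic and Thy1+Nic after nicotine. Each library was made from 30 hand-picked cells of 1 mouse, and 10 of the 12 libraries of the design were used. There were 3 libraries each of Sst and Thy1+Nic and 2 each of Sst+Nic and Thy1, whose replicate 1 was not used here. Since the lines differ in background, cell type and strain cannot be told apart in any comparison of Sst- with Thy1-neurons.

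Complex I, the NADH dehydrogenase of the inner mitochondrial membrane, passes electrons from NADH to ubiquinone and pumps protons, and it is the entry point of the respiratory chain that supplies neurons with most of their ATP. Its peripheral arm is built from nuclear-encoded proteins, whereas the ND subunits form the core of the membrane arm. ND2, ND4 and ND5 resemble the antiporters that carry protons, ND1 lies at the junction with the peripheral arm near the quinone site, and ND3, ND4L and ND6 complete the membrane core between these parts. Mitochondrial genes are transcribed as long precursors from both strands and are then cut into single RNAs, often at the tRNAs that lie between them.

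The members lie between bases 2751 and 14070 of the mitochondrial genome (GRCm38, named MT), each as 1 exon without introns. ND1 occupies bases 2751 to 3707, ND2 3914 to 4951, ND3 9459 to 9806, ND4L 9877 to 10173, ND4 10167 to 11544 and ND5 11742 to 13565, all on the plus strand. ND6, at 13552 to 14070, lies on the minus strand and is the only protein gene of the 13 there. Pairs of members overlap at 2 places. The last bases of ND4L and the opening bases of ND4 share 7 bases on the same strand, and the ends of ND5 and ND6 share 14 bases on opposite strands. The stretches around both overlaps are shown because a fragment there can belong to either gene, with the shared bases in capitals. They were read 5′ to 3′ in the sense of each gene from GENCODE transcripts of GRCm38.
ND4L, MT:10144-10173, plus strand: gtccaaaatctcaacctactacaATGCTAA
ND4, MT:10167-10196, plus strand: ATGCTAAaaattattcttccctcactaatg
ND5, MT:13536-13565, plus strand: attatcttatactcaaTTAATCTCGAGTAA
ND6, MT:13552-13581, minus strand: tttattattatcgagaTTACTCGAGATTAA
The library kits do not mark strand. Reads from ND6 can therefore not be told apart from reads of the antisense RNA of the other strand, and the same holds for ND5 in the shared bases and for every other member.

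The letters of ND6 also stood apart from those of the other 6 members. Its sense strand held 5.97% C and 28.1% G, while the other members held between 22.1% and 29.97% C and between 7.996% and 11.6% G. The longest run of A was 3 bases in ND6 and between 4 and 8 bases in the other members. Start codons differed among members, with GTG in ND1, ATA in ND2, ATT in ND3, ATC in ND5 and ATG in ND4, ND4L and ND6. ND4 held 1 base beyond whole codons, so that its stop codon is not complete in the DNA.

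Parts of the nuclear genome are copies of mitochondrial DNA, and reads from near-identical copies cannot be assigned. Against annotated nuclear transcripts, 3 members matched neighbouring pseudogenes on chromosome 1, namely ND3 at 99.7% identity (Gm28438), ND4L at 100% (Gm10222) and the first 876 bases of ND4 at 100% (Gm28439). Counts of these 3 members are therefore uncertain to the extent that reads were shared. No annotated copy of ND1 was found, and the best match was 96.7% for ND2 (Gm13339), 95.2% for ND5 (Gm4076) and 93.6% for ND6 (Gm11408).

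Total counts per library ranged from 2915738 to 4878326 fragments, equal to between 20.0% and 27.3% of the uniquely mapped pairs of a library, where the number of pairs is the number of uniquely mapped reads divided by 2 and so counts reads without a mapped mate as parts of a pair. Many nuclear entries held few or no counts, including Actb and Slc17a7, and whether the table holds the full counts of nuclear genes is not known. Shares of all counts, CPM values and sums over markers therefore describe the counts in the table, and a low sum does not show that a cell type was absent. Of 36 nuclear-encoded complex I subunits 18 were at 0 in every library and 5 held at least 100 counts in every library. Of 10 assembly factors and 13 factors of mitochondrial transcription and RNA processing in the table, 3 and 2 were at 0 in every library. For this reason no comparison of the members with these lists is given. The Sst entry held between 156805 and 494339 counts in libraries of Sst-neurons and between 4 and 13823 in those of Thy1-neurons, of which only replicate 3 of Thy1 was above 171. It took between 5.38% and 12.6% of all counts in Sst-neuron libraries, which lowers the CPM of every other gene. The list of Sst interneuron markers held 6 genes, and the others separated the cell types poorly or not at all. Npy was at 0 throughout, and Gad1 and Gad2 held at most 4 and 1 counts. Lhx6 was at 0 in Sst, at 52 and 9 in Sst+Nic and at up to 24 in Thy1-neurons. Slc32a1 held between 1 and 81 counts in Sst-neurons and between 1 and 24 in Thy1-neurons. All 6 markers of layer V pyramidal neurons together reached at most 14.4 CPM in any library, so the identity of Thy1-neurons could not be checked. Of 3 endothelial markers, only Flt1 held 100 counts in every library, and the list summed to between 219 and 317 CPM in Sst, 332 and 417 in Sst+Nic, 128 and 153 in Thy1 and 116 and 189 in Thy1+Nic. Of 4 oligodendrocyte markers 2 were at 0 throughout, and the list summed to between 15.6 and 26.6 CPM in Sst, 21.3 and 107 in Sst+Nic, 0.573 and 46.4 in Thy1 and 0 and 8.06 in Thy1+Nic. Markers of astrocytes, microglia and red blood cells summed to at most 8.64 CPM. The part of these cells and of the Sst entry's share in the results was not tested, except that library sizes without the Sst entry are given below.

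The members together held between 135447 and 447393 fragments per library. In Sst they made up 5.30%, 5.30% and 5.09% of all counts (5.23% ± 0.119, SD, n = 3), and in Thy1 8.64% and 9.98% (9.31% ± 0.943, SD, n = 2). In Sst+Nic they made up 4.65% and 5.24% (4.94% ± 0.419, SD, n = 2). In Thy1+Nic they made up 7.23%, 10.6% and 8.20% (8.67% ± 1.72, SD, n = 3). Every Thy1-neuron library thus lay above every Sst-neuron library, with or without nicotine. Per uniquely mapped pair, a total that does not depend on the counted entries, the members made up between 0.928% and 1.42% in Sst-neurons and between 1.87% and 2.62% in Thy1-neurons. In libraries of pooled cells, fewer cells that express a gene and less of its RNA per cell cannot be told apart.

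Levels between members were compared as CPM per kb, the counts scaled to a common library total and divided by gene length in kilobases. ND1 had the highest level of the 7 in every library and ND4L the lowest, and ND1 exceeded ND4L by between 13.4-fold and 24.4-fold. In Sst the order of mean levels was ND1, ND4, ND2, ND3, ND6, ND5 and ND4L, and ranges overlapped between ND2 and ND3, ND3 and ND6, and ND6 and ND5. In Thy1 the order was ND1, ND4, ND2, ND6, ND5, ND3 and ND4L, and ranges overlapped between ND4 and ND2 and between ND6 and ND5. In both nicotine groups ND1, ND4 and ND2 also led, and from ND4 down to the member above ND4L each range overlapped the next. Among all 13 genes, ND1 ranked 4 in Sst and Sst+Nic and 5 in Thy1 and Thy1+Nic, and the other members filled ranks 7 to 13 together with ATP8. ND4L and ND4 overlap and are carried on 1 transcript, yet the level of ND4L was between 0.132 and 0.261 times that of ND4.

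**Figure D1:**
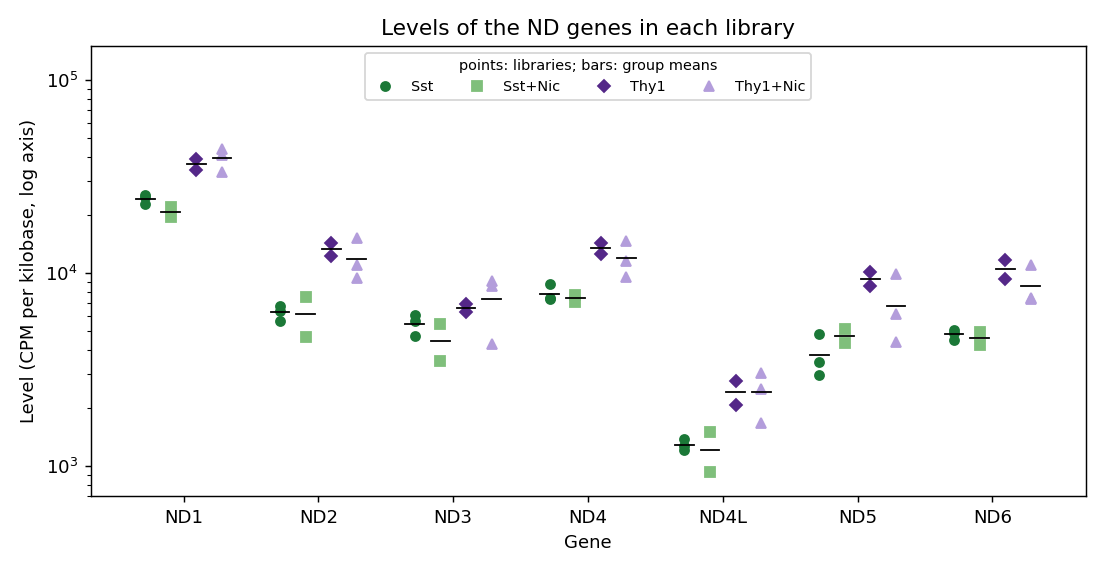
Level of each ND gene in each of the 10 libraries, in CPM per kilobase on a log axis; points are libraries and black bars are group means (n = 3 for Sst and Thy1+Nic, n = 2 for Sst+Nic and Thy1). ND1 lies highest and ND4L lowest in every group, and the Thy1 points of each gene lie above its Sst points.

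The first comparison was that of Sst- with Thy1-neurons in the absence of nicotine. ND5 and ND6, the genes on either side of the shared 14 bases, passed the test and were lower in Sst-neurons, while the other 5 members were lower by log2 fold changes that did not pass it. A call required an adjusted p below 0.05 and a fold change above 2 in the quasi-likelihood test of edgeR, with Benjamini-Hochberg adjustment over all entries. These 2 of 7 members compare with 1.72% of the 6350 entries tested (109 called, of which 57 were lower in Sst-neurons). The median log2 fold change of the 7 members was -1.08, beside 0.05 over all entries. On the CPM scale all 7 members were without overlap lower in Sst, as were 15.3% of all entries. The same held for all 13 mitochondrially encoded protein genes, so it was not particular to complex I. Together the 13 genes took between 21.2% and 22.1% of all counts in Sst and between 31.7% and 35.7% in Thy1.

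ND5, the largest member and one of the antiporter-like subunits, had 4841, 3484 and 2970 CPM per kb in Sst and 8618 and 10130 in Thy1. Every Thy1 value lay above the highest Sst value, and replicate 1 was the highest of Sst. Its log2 fold change was -1.51 ± 0.22 (SE; edgeR adjusted p = 0.0262). ND6, a small subunit of the membrane core, had 4528, 5092 and 4892 CPM per kb in Sst and 9351 and 11742 in Thy1. The Sst libraries lay close together and the Thy1 libraries well above them. Its log2 fold change was -1.29 ± 0.23, with an edgeR adjusted p of 0.0498 that lies just below the threshold. With any 1 of the 5 libraries left out, neither gene was called, while the log2 fold change stayed between -1.75 and -1.30 for ND5 and between -1.57 and -1.03 for ND6, and the calls among all entries fell from 109 to between 33 and 55. Neither gene was called in a fit with a replicate block, which called 59 entries, or with library sizes without the Sst entry, which called 87. With RLE size factors and with uniquely mapped pairs as library sizes 1 member was called, so at least 1 of these 2 genes was not. DESeq2 called 5 of the 7, all but ND1 and ND3, beside 8.68% of the 6350 entries, and the direction was the same in all of these fits.

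ND4, another antiporter-like subunit, had 8766, 7305 and 7446 CPM per kb in Sst and 12631 and 14391 in Thy1. ND2, the third of that kind, had 5682, 6789 and 6367 CPM per kb in Sst and 12304 and 14275 in Thy1. Both genes were without overlap lower in Sst, and both missed the call narrowly. The log2 fold change of ND4 was -0.97 ± 0.17 (edgeR adjusted p = 0.0500164), which also falls short of a fold change of 2. That of ND2 was -1.24 ± 0.23 (edgeR adjusted p = 0.0518). ND4L, the smallest member, had 1377, 1281 and 1215 CPM per kb in Sst and 2073 and 2755 in Thy1, and its log2 fold change was -1.08 ± 0.25 (edgeR adjusted p = 0.0968). ND1 had 22745, 25462 and 24816 CPM per kb in Sst and 34356 and 38987 in Thy1, with a log2 fold change of -0.76 ± 0.21 (edgeR adjusted p = 0.137). These 2 genes were also without overlap lower in Sst and were not called. ND3, next to ND4L on the map, had 4711, 6040 and 5663 CPM per kb in Sst and 6304 and 6952 in Thy1. Its groups were the closest of the 7, with 6040 just below 6304, and its log2 fold change was -0.43 ± 0.25 (edgeR adjusted p = 0.469). Per uniquely mapped pair the ND3 groups overlapped, and those of the other 6 members did not, beside 11 of the 13 mitochondrial genes without overlap.

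The direction of all 7 members was below 0 under each way of scaling the libraries, and only its size moved. With totals in place of TMM the median of the members was -0.90, with uniquely mapped pairs -0.84, and without the Sst entry -0.77. In those fits the median of all entries moved to 0.22, 0.29 and 0.36.

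In the presence of nicotine, all 7 members were again lower in Sst- than in Thy1-neurons, by more even sizes than after saline, and none was called. The log2 fold changes ran from -1.06 ± 0.41 for ND5 to -1.48 ± 0.45 for ND4L, with a median of -1.41 beside 0.09 over all entries. Here too the size depended on the scaling, and the median of the members was -0.90 with totals, as it was after saline, -1.15 with uniquely mapped pairs and -0.81 without the Sst entry, where the median of all entries moved to 0.59, 0.31 and 0.67. Their edgeR adjusted p-values lay between 0.0979 for ND1 and 0.273 for ND3, and 0.507% of the 6509 entries tested were called. All 7 had an unadjusted p under 0.05, as did 15.7% of the entries, but 5 did with totals, 5 with uniquely mapped pairs, 4 without the Sst entry, 6 with a replicate block and 2 without replicate 2 of Sst+Nic. DESeq2 called 5 of the 7, beside 7.62% of the entries, and limma voom called 1, beside 0.999%.

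ND1 had 19607 and 22015 CPM per kb in Sst+Nic and 33558, 43777 and 41090 in Thy1+Nic, with a log2 fold change of -1.42 ± 0.30. ND6 had 4254 and 4963 CPM per kb in Sst+Nic and 7472, 11081 and 7304 in Thy1+Nic, with a log2 fold change of -1.41 ± 0.36. Neither gene overlapped between groups, and replicate 2 of Thy1+Nic was the highest library for both. ND4 had 7095 and 7732 CPM per kb in Sst+Nic and 9586, 14636 and 11561 in Thy1+Nic. ND2 had 4664 and 7566 CPM per kb in Sst+Nic and 10970, 15275 and 9400 in Thy1+Nic. ND4L had 937 and 1503 CPM per kb in Sst+Nic and 2503, 3052 and 1684 in Thy1+Nic. These 3 genes did not overlap either, so that 5 of the 7 members were without overlap lower in Sst+Nic, as were 8.66% of all entries. The same held for 11 of the 13 mitochondrially encoded protein genes. Together the 13 genes took between 16.3% and 19.8% of all counts in Sst+Nic and between 31.4% and 38.5% in Thy1+Nic. ND3 had 3502 and 5440 CPM per kb in Sst+Nic and 8591, 9097 and 4311 in Thy1+Nic. ND5 had 5135 and 4326 CPM per kb in Sst+Nic and 4377, 9863 and 6139 in Thy1+Nic. In both genes 1 Thy1+Nic library lay within the range of Sst+Nic, namely replicate 3 for ND3 and replicate 1 for ND5.

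**Figure D2:**
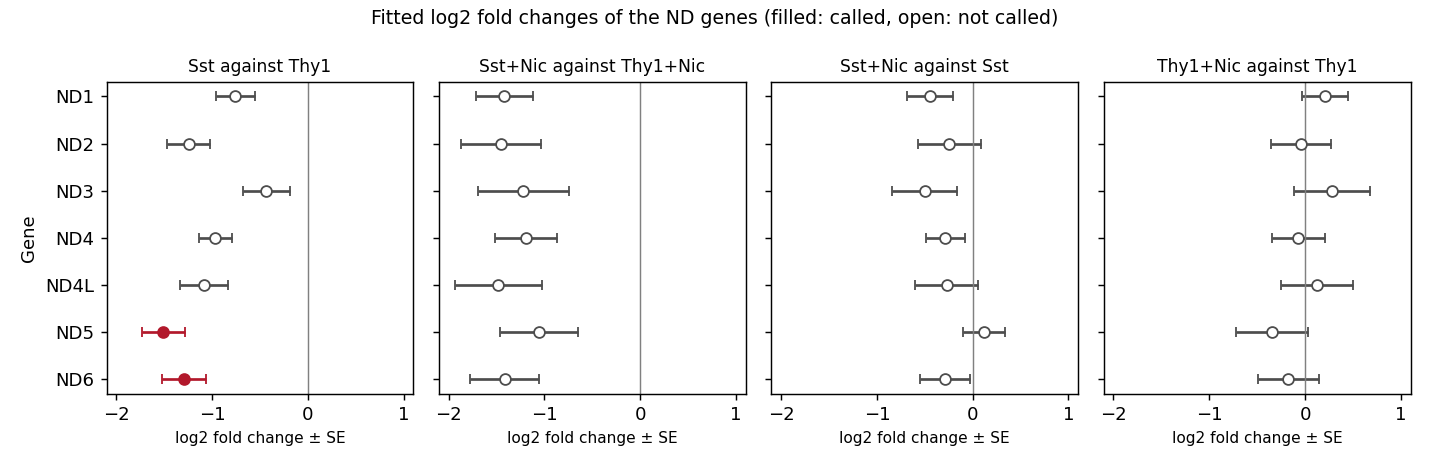
Fitted log2 fold change of each ND gene with its standard error (edgeR) in 4 comparisons; a value below 0 means lower in the group named before "against", and filled points passed the test. ND5 and ND6 are the filled points, in Sst against Thy1, and all 7 genes lie below 0 in both comparisons of cell types.

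Nicotine against saline was compared within each cell type, and these comparisons share their libraries with those of the cell types. In Sst-neurons 6 of the 7 members had a log2 fold change below 0, from -0.50 ± 0.34 for ND3 to -0.24 ± 0.33 for ND2, and ND5 had one of 0.12 ± 0.22. None was called, and the edgeR adjusted p was 0.99977 for each. Of the 6689 entries tested 0 were called by edgeR (0%), with 280 at an unadjusted p under 0.05, and DESeq2 called 16, none of them a member. The levels printed above show what lies behind these values. ND1 was the only member without overlap lower in Sst+Nic than in Sst on the CPM scale, as were 4.78% of all entries. Of the 13 mitochondrial genes 6 were so, namely ND1 and, outside complex I, COX1, ATP8, ATP6, COX3 and CYTB. Per uniquely mapped pair the groups of ND1 overlapped. On that scale no member was without overlap lower in Sst+Nic, and ND5 was without overlap higher, beside 3 of the 13 mitochondrial genes without overlap in either direction. The ND5 values of Sst+Nic, 5135 and 4326 CPM per kb, lay within or just above those of Sst, which ranged from 2970 to 4841.

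In Thy1-neurons the members ran from -0.35 ± 0.37 for ND5 to 0.28 ± 0.39 for ND3, with 4 of the 7 below 0 and 5 of the 7 with totals in place of TMM. None was called (edgeR adjusted p = 0.9999 for each), and of the 6048 entries tested 0 were called by edgeR (0%), with 264 at an unadjusted p under 0.05 and 14 called by DESeq2. No member was without overlap lower in Thy1+Nic on the CPM scale, against 13.7% of all entries. Thy1+Nic libraries were more spread than Thy1 libraries in ND5, where they ranged from 4377 to 9863 CPM per kb, and in ND3, where they ranged from 4311 to 9097.

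The interaction of nicotine and cell type, the log2 fold change by nicotine among Sst-neurons less the one among Thy1-neurons, was tested in all 10 libraries. It ran from -0.79 ± 0.55 for ND3 to 0.44 ± 0.46 for ND5 on the log2 scale, and edgeR called none of the members and none of the 8242 entries (0%, with 604 at an unadjusted p under 0.05), while DESeq2 called 7 entries and no member. Of the members 6 were below 0 with TMM, but 3 with totals as library sizes. The smallest unadjusted edgeR p among members was that of ND1, 0.0591, with a log2 difference of -0.67 ± 0.32.

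The share of each member in the counts of the 13 mitochondrially encoded protein genes does not depend on library size or on nuclear entries, apart from reads shared with nuclear copies. Together the 7 members took 24.7%, 23.9% and 24.0% in Sst, and 28.5% and 26.4% in Sst+Nic. They took 27.3% and 28.0% in Thy1, and 23.0%, 27.4% and 23.9% in Thy1+Nic. Sst and Thy1 did not overlap, Sst+Nic lay above Sst, and Thy1+Nic spread over most of the range. The other 6 genes code for subunits of complexes III, IV and V and took the remainder. Fragments on the ribosomal RNAs Rnr1 and Rnr2 per fragment on the 13 genes varied as well. They ranged from 0.133 to 0.219 in Sst, 0.249 to 0.368 in Sst+Nic, 0.256 to 0.286 in Thy1 and 0.154 to 0.274 in Thy1+Nic. They did not follow the ND shares library by library. Replicate 1 of Thy1+Nic had the lowest ND share, 23.0%, and a ratio of 0.274. In Sst+Nic the share of 28.5% went with 0.249 and that of 26.4% with 0.368. Whether this ratio bears on the ND shares was not tested.

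ND1 took the largest share of the 7 in every library, between 10.1% and 11.5% of the 13-gene counts, and it was also the steadiest. ND4 took between 4.20% and 6.01%, ND5 between 2.54% and 5.76%, ND2 between 2.75% and 4.16%, and ND6 between 1.09% and 1.71%. ND3 took between 0.437% and 0.954% and ND4L between 0.146% and 0.237%. ND5 and ND3 were thus the members whose share varied most relative to its size. The Wilson 95% interval of the smallest count, 811 for ND4L in replicate 2 of Sst+Nic, ran from 0.160% to 0.183%. It covers the counting of fragments only, and not the sampling and amplification of RNA from few cells.

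Between Sst and Thy1 the shares of ND2, ND4L, ND5 and ND6 were without overlap lower in Sst and that of ND3 was without overlap higher, and over all 13 genes 69.2% did not overlap in one direction or the other. ND5 had shares of 4.11%, 2.87% and 2.56% in Sst and of 4.96% and 5.18% in Thy1. ND6 had shares of 1.09%, 1.19% and 1.20% in Sst and of 1.53% and 1.71% in Thy1. ND2 had shares of 2.75%, 3.19% and 3.12% in Sst and of 4.03% and 4.16% in Thy1. Within these 3 genes the Sst libraries stayed below both Thy1 libraries by a gap wider than the gap between the Thy1 libraries. ND3 went the other way, with 0.763%, 0.950% and 0.931% in Sst and 0.693% and 0.679% in Thy1. After nicotine 23.1% of the 13 genes did not overlap between cell types, and among the members only ND4 did not, with 6.01% and 5.37% in Sst+Nic and 4.20%, 5.23% and 4.64% in Thy1+Nic.

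The difference between cell types over both treatments was tested by an exact permutation of cell type within saline and within nicotine, which has 100 arrangements and a smallest p of 0.01. After adjustment over the 13 genes a single gene at that p reaches 0.13, and no call is possible unless at least 3 genes pass together, so the lack of a call is no sign that shares were alike. No member and 0 of the 13 genes (0%) were called, also with the genes that have a near-identical nuclear copy left out of the total. ND6 had a mean difference, Sst- minus Thy1-neurons, of -0.20 percentage points (two-sided exact permutation p = 0.15, adjusted p = 0.412), ND2 one of -0.57 (exact permutation p = 0.16, adjusted p = 0.412) and ND3 one of 0.16 (exact permutation p = 0.19, adjusted p = 0.412). With 1 library left out, the difference ran from -0.81 to -0.32 for ND2, the smaller size being without replicate 2 of Sst+Nic, and from 0.081 to 0.21 for ND3, the smaller being without replicate 3 of Thy1+Nic. The other 4 members had exact permutation p-values between 0.36 and 0.77. Among them ND4L had a difference of -0.021, which ran from -0.036 to -0.0075 with 1 library left out. The larger size was without replicate 3 of Thy1+Nic (exact permutation p = 0.0167, the smallest possible with 60 arrangements), and the smaller without replicate 2 of Sst+Nic. For nicotine over both cell types, the members had exact permutation p-values between 0.32 for ND1, with a difference of 0.35 percentage points, and 0.97 for ND5 (adjusted p = 0.97 for each), and 0% of the 13 genes were called. The difference of ND1 ran from 0.13 without replicate 2 of Sst+Nic to 0.58 without replicate 3 of Sst+Nic.

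The mean shares of 5 of the 7 members, ND2, ND4, ND4L, ND5 and ND6, were higher after nicotine than after saline in Sst-neurons and lower in Thy1-neurons, and none of the other 6 genes had this pattern. That count rested on replicate 3 of Sst+Nic. Without it only ND4, ND5 and ND6 of the members kept the pattern. ND2 then stood at 2.97% beside 3.02% in Sst, and ND4L at 0.171% beside 0.178%. COX1 then had the pattern too, at 16.41% beside 16.39% in Sst. The shares add up to the whole, so a higher share of some genes comes with a lower share of others. In Sst-neurons the mean share of ND5 was 3.18% ± 0.821 after saline (SD, n = 3) and 4.87% ± 1.26 after nicotine (SD, n = 2), and in Thy1-neurons 5.07% ± 0.154 after saline (SD, n = 2) and 3.49% ± 1.08 after nicotine (SD, n = 3). For ND6 the mean shares were 1.16% ± 0.0595 and 1.33% ± 0.0410 in Sst-neurons, and 1.62% ± 0.125 and 1.28% ± 0.198 in Thy1-neurons. For ND4 they were 5.01% ± 0.554 and 5.69% ± 0.450 in Sst-neurons, and 5.53% ± 0.0463 and 4.69% ± 0.517 in Thy1-neurons. In Sst-neurons only ND6 among the members did not overlap between nicotine and saline, beside 15.4% of the 13 genes, and in Thy1-neurons ND4, ND5 and ND6 did not, beside 30.8%. The difference of differences was 3.27 percentage points for ND5 (two-sided exact permutation p = 0.03, adjusted p = 0.13), 0.51 for ND6 (exact permutation p = 0.03, adjusted p = 0.13) and 1.52 for ND4 (exact permutation p = 0.04, adjusted p = 0.13). It was 1.02 for ND2 (exact permutation p = 0.15, adjusted p = 0.39) and 0.027 for ND4L (exact permutation p = 0.6, adjusted p = 0.87). The largest difference and the smallest p among the 13 genes were those of COX3, a subunit of complex IV, at -4.39 percentage points (exact permutation p = 0.02, adjusted p = 0.13). None passed the adjustment over the 13 genes (0%), where the same limit on adjusted p-values holds. With log2 ratios to the mean of the 13 genes the unadjusted exact permutation p was 0.16 for ND4, 0.05 for ND5 and 0.03 for ND6, and with counts per kilobase it was 0.06 for ND4 and 0.03 for ND5 and for ND6. With 1 library left out, the difference ran from 2.38 to 4.16 for ND5, from 0.42 to 0.62 for ND6, from 1.20 to 1.84 for ND4 and from 0.53 to 1.51 for ND2, whose extremes were without replicate 3 and without replicate 2 of Sst+Nic. That of ND4L ran from -0.0035 to 0.054 and was below 0 without replicate 3 of Sst+Nic or of Thy1+Nic. Without replicate 2 of Sst+Nic or without replicate 3 of Thy1 no member had an unadjusted p under 0.05, in a design then reduced from 100 to 40 arrangements. ND1 and ND3 had exact permutation p-values of 0.87 and 0.74.

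**Figure D3:**
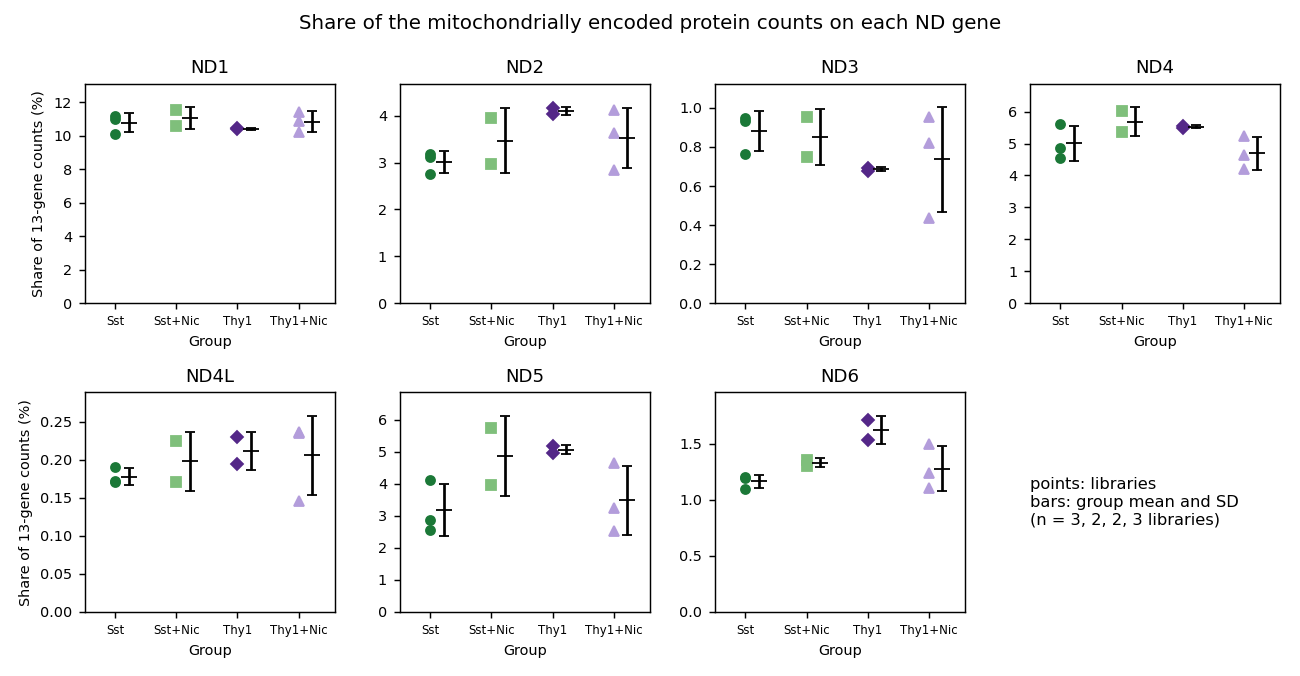
Share of each ND gene in the counts of the 13 mitochondrially encoded protein genes, in percent on axes from 0, by group; coloured points are libraries and bars give the group mean and SD. The Sst points of ND2, ND5 and ND6 lie below both Thy1 points, and the 4 group means of ND5 range from 3.18% to 5.07%.

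ND6 is transcribed from the other strand, but the libraries do not mark strand, so its counts can include RNA of the plus strand. The levels of this paragraph are therefore those of counted fragments and do not show the amount of ND6 RNA itself. The counted level of ND6 lay among those of its neighbours on the plus strand. Its level was between 0.828 and 1.71 times that of ND5 and between 0.142 and 0.281 times that of CYTB, a complex III subunit whose gene lies on its other side. The ratio to ND5 was below 1 in 2 libraries, replicate 1 of Sst and replicate 2 of Sst+Nic. The ratio to CYTB was 0.161 ± 0.0166 in Sst (SD, n = 3) and 0.272 ± 0.0125 in Thy1 (SD, n = 2), without overlap. After nicotine it was 0.192 ± 0.00573 (SD) for the 2 Sst+Nic libraries and 0.207 ± 0.0420 for the 3 Thy1+Nic libraries, with overlap. The tRNA gene TrnE directly follows ND6 on the map and lies on the same minus strand, and it held between 203 and 872 counts per library. The ratio of ND6 to TrnE per kilobase was between 3.29 and 4.52 in the 10 libraries. Fragments are poorly assigned to a gene of 69 bases, and for TrnE too their strand is not known.

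**Figure D4:**
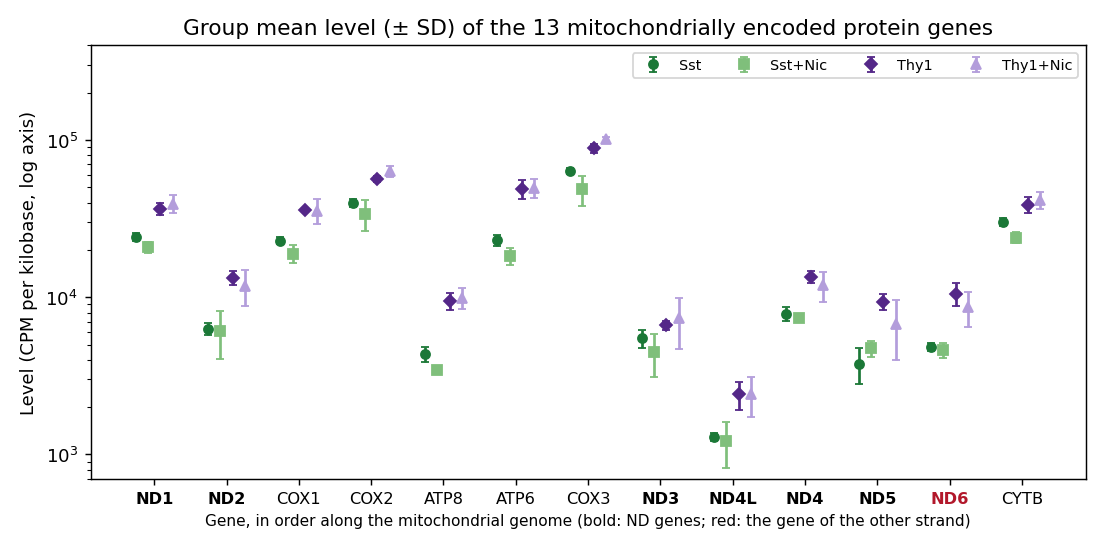
Group mean level with SD of the 13 mitochondrially encoded protein genes, in CPM per kilobase on a log axis and in their order along the genome, with ND genes in bold and ND6, the gene of the other strand, in red. From ND3 to ND6 levels are low, with ND4L lowest, and CYTB beside ND6 is several times higher.

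Libraries also differed in how the members moved against each other. For this the log2 count of each gene was taken relative to the mean of the 13 genes in the library, and Pearson's r was computed over the 10 libraries as a description. ND4 and ND5 were each most like the other of the pair (r = 0.76, and 0.87 after group means were removed). ND6 was most like ND2 (r = 0.62, and 0.28 after group means were removed) and ND4L was also most like ND2 (r = 0.61, and 0.63). ND1 was most like CYTB (r = 0.79, and 0.76 after group means were removed) and ND3 most like COX2, a complex IV subunit (r = 0.57, and 0.34). ND1 and ND4L moved against each other (r = -0.83, and -0.95 after group means were removed). The points share libraries and a common mean, so that a high share of 1 gene lowers the values of the others.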

How the data were processed

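RNA of 30 cells per mouse was amplified with an oligo(dT)-primed low-input kit and sequenced in read pairs. The authors aligned the pairs to the mouse genome with TopHat and deposited raw counts of fragments per gene entry without normalization. HTSeq and GRCm38 are named in the submitters' processing notes, and counting settings are not given in the sources used here. Replicates are separate mice.

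Pairs of groups were fitted on their own 5 libraries, and the interaction on all 10, with edgeR 4.0.16 (quasi-likelihood test, TMM, filterByExpr with a minimum count of 10, R 4.3.3), and p-values were adjusted over all entries. Standard errors follow from each fold change and its F statistic. Shares were tested by two-sided exact permutation within strata and adjusted over the 13 genes. Both scripts were tested on simulated data. Positions and sequences came from GENCODE vM21. Near-identical copies were BLAST matches of at least 99% identity over 100 bases to annotated transcripts. Uniquely mapped reads per library were taken from the study and divided by 2 to give pairs, with reads of broken pairs included. Intervals cover counting error only.

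All 7 members are named; other mitochondrial genes are named where a member is set against them, and the most similar gene is the one with the highest r among the 13. The members, lists and tests were chosen with earlier results of these data known. Nuclear lists were not compared because many of their entries were at or near 0.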

Additional observations from a re-analysis of the deposited data

How the results depend on the processing

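Between Sst and Thy1 after saline, 2 members were called beside 1.72% of all entries tested, and the count was 5 with DESeq2 (8.68% of entries), 3 with limma voom (1.72%), 1 with RLE size factors (1.54%), 4 without a filter (3.28%), 4 with at least 10 counts in a library (2.89%), 1 with uniquely mapped pairs as library sizes (95 of 6350 entries), 4 with mitochondrial genes left out of the library size (1.70%), 0 with a replicate block (0.929%) and 0 without the Sst entry in the library size (1.37%), a setting chosen after seeing the data. Between Sst+Nic and Thy1+Nic, 0 were called beside 0.507% of entries, and the count was 5 with DESeq2 (7.62%), 1 with limma voom (0.999%), 7 without a filter (2.65%), 5 with a minimum of 10 counts in a library (2.91%) and 3 with a common fit of all 10 libraries (1.27%). With 1 library left out, the count was 0 in each of the 5 comparisons, where a group of 1 library is assumed to vary like the others, and the entries called fell to between 33 and 55 after saline and were between 0 and 56 with nicotine. The cause was not tested. No setting called a member for nicotine or for the interaction. No share was called either, but there a gene alone at the smallest p reaches an adjusted p of 0.13 with 100 arrangements, 0.217 with 60 and 0.325 with 40, so that at least 3, 5 or 7 of the 13 genes must pass together. The numbers below 0 ranged from 4 to 7 of 7 for nicotine in Sst-neurons, from 1 to 5 in Thy1-neurons and from 3 to 6 for the interaction, and all 7 were below 0 in each fit between cell types. With 1 library left out, the log2 fold change by nicotine in Sst-neurons ran from -0.82 to 0.13 for ND2, from -1.04 to -0.15 for ND3 and from -0.012 to 0.24 for ND5, and in Thy1-neurons from 0.06 to 0.58 for ND3 and from -0.79 to -0.09 for ND5. The interaction ran from -0.88 to -0.47 for ND1, from -1.29 to -0.41 for ND3 and from 0.21 to 0.94 for ND5. Between cell types, the log2 fold change of ND3 after saline ran from -0.65 to -0.27 and that of ND5 with nicotine from -1.28 to -0.57. The median level of the members in Sst relative to Thy1 was 0.535-fold and ran from 0.469-fold to 0.621-fold with 1 library left out. Same-numbered libraries did not deviate together (correlations from -0.0815 to 0.0294), so the numbers were not taken to pair samples, and the block moved no other count of called members. Thy1 and Sst+Nic held 2 libraries each, which limits the precision, and the intervals of counting error do not cover the spread between mice.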
